A study of Mus musculus with 24 samples.

Results

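Visceral fat of male mice that lost the transcription factor T-bet in regulatory T cells (Treg cells) was set directly against visceral fat of male mice that lost PPARγ in the same cells. The comparison uses 4 Tbet KO libraries and 4 Pparg KO libraries, 8 of the 24 libraries of the series, chosen by the genotype and sex in their names. Mice of the Tbet KO group have the genotype TbetFoxp3cre and those of the Pparg KO group PpargFoxp3cre. The 4 male control libraries (Foxp3cre) and the female libraries stayed out of the fit. The Cre recombinase, which the controls carry too, is driven by Foxp3, so each gene is deleted in Foxp3-expressing cells while the RNA comes from whole perigonadal fat. All mice were 27 to 33 weeks old, and no treatment is named. In each group replicates 1 and 3 belong to batch 1 and replicates 2 and 4 to batch 2. The titles give replicates 1 and 2 of each group the number 1 and replicates 3 and 4 the number 2. Whether a shared number means a shared animal is not stated. Nothing in the labels says that the libraries came from separate animals, and the spread that p-values rest on is that of these libraries, which may be partly technical.

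Treg cells restrain other immune cells, and visceral fat of lean male mice holds an unusually large resident population of them. PPARγ, best known as the master regulator of the adipocyte, is also needed by the fat Treg cells that carry the IL-33 receptor ST2. T-bet, encoded by Tbx21, directs type 1 immunity and, in Treg cells, the CXCR3-bearing cells that accumulate where interferon-γ is made. Macrophages are a further large leukocyte population of the tissue. Those that carry TIM-4, LYVE1 and the folate receptor FOLR2 are long-lived resident cells lying near vessels, where they clear dying cells and debris. The series asks how 2 kinds of Treg cell in fat arise and shape metabolism, and the direct comparison asks how the tissue without one regulator differs from the tissue without the other.

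Library totals ran from 12551619 to 27520628 counts in Tbet KO males and from 15473451 to 27192326 in Pparg KO males. Adipocyte markers were abundant in every library: adiponectin (Adipoq) lay at 1767 to 3389 CPM (counts scaled to library size) in Tbet KO males and at 1794 to 2945 CPM in Pparg KO males. Epididymal and epithelial transcripts, however, were uneven. Male reproductive tract genes summed to 3835 CPM in Tbet KO male replicate 4, against 2.34 to 15.3 CPM in the other Tbet KO males and 5.88 to 35.2 CPM in Pparg KO males. Ductal and other epithelium genes summed to 8.93 to 371 CPM in Tbet KO males and 7.8 to 197 CPM in Pparg KO males, highest in replicate 4 of each group. Xist, which silences an X chromosome in female cells, lay at 22.5 CPM in Tbet KO male replicate 4 and at 0.0377 to 3.1 CPM in the other 7 libraries. The part of RNA from another sample in that library was not tested, and values without it are given for Tbx21 and for the resident macrophage genes. The first principal component held 52.5% of the variance among the 8 libraries. Levels are CPM on the TMM scale throughout, which corrects for library composition, and they are not divided by gene length.

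No gene passed the test in either direction. Of 16410 genes tested by edgeR's quasi-likelihood test with batch as covariate, 0 had a Benjamini-Hochberg adjusted p under 0.05 (0% higher, 0% lower), and the smallest adjusted p was 0.478. At an unadjusted p under 0.05 there were 848 genes (5.17% of those tested), of which 263 were higher (1.6%) and 585 lower (3.56%) in Tbet KO males. DESeq2, run on the same counts and design, called 111 genes: 17 higher (0.104%) and 94 lower (0.573%). All directions below are therefore given as levels and fold changes, none of which passed edgeR's test. The median log2 fold change of Tbet KO over Pparg KO was -0.02 over all genes, and 8858 genes (54%) had a fold change below 0. The levels of all 8 libraries failed to overlap between the groups for 69 genes in the higher direction (0.42%) and 157 in the lower (0.957%).

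**Figure D1:**
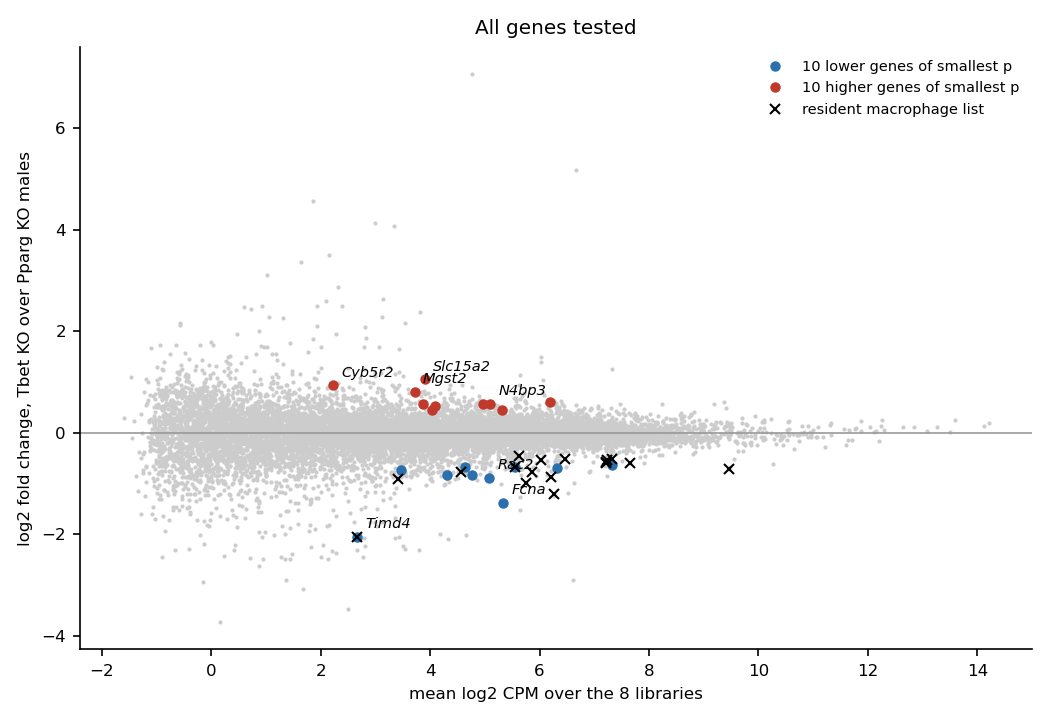
Log2 fold change of Tbet KO over Pparg KO males against mean log2 CPM over the 8 libraries, 1 grey point per gene tested (16410). Blue and red points are the 10 lower and 10 higher genes of smallest unadjusted p. Crosses are the 17 genes of the resident macrophage list, which includes general macrophage genes, and all lie below 0.

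The deleted genes came first as a check of the labels. Tbx21 (chr11:97098007-97115331, GRCm38.p6) lay at 0.102, 0.731, 0.281 and 1.24 CPM in Tbet KO males, against 1.41, 1.66, 1.28 and 1.45 CPM in Pparg KO males. All 4 Tbet KO libraries were below all 4 Pparg KO libraries. The log2 fold change was -1.63 (SE 0.56), with an adjusted p of 0.861 by edgeR. In control males Tbx21 lay at 1.14, 0.6, 1.14 and 1.75 CPM, so Tbet KO replicates 2 and 4 lay within the control range. Without Tbet KO replicate 4 the log2 fold change was -1.99 (adjusted p 0.666). Other T cells, NK cells and innate lymphoid cells also use T-bet and keep the gene in this design.

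Pparg itself (chr6:115360879-115490404) could not serve as such a check, because adipocytes supply nearly all of it. It lay at 194, 253, 269 and 194 CPM in Tbet KO males, against 252, 289, 243 and 215 CPM in Pparg KO males, for -0.14 on the log2 scale (SE 0.15, adjusted p 0.994). The groups overlapped. Foxp3 (chrX:7579676-7595243), which defines Treg cells, lay at 0.408, 0.279, 0.935 and 0.509 CPM in Tbet KO males and at 0.342, 1.53, 0.489 and 1.1 CPM in Pparg KO males. Its log2 fold change of -0.53 (SE 0.65, adjusted p 0.999) was 0.69, the opposite direction, in batch 1 alone. In whole tissue, fewer cells of a type and less RNA per cell cannot be told apart.

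Genes of the resident macrophage list lay lower in Tbet KO than in Pparg KO males in both batches. The list mixes markers of resident cells with general macrophage and myeloid genes such as Csf1r and Lyz2. Its values therefore do not single out resident cells. The list was chosen with earlier results of these data known, so its counts beside those of all genes are no independent test. Its genes, measured in the same libraries, are not separate observations. All 17 of the 17 measured members had a log2 fold change below 0, with a median of -0.68 beside -0.02 over all genes. Of the 17, 15 were lower at an unadjusted p under 0.05, where 3.56% of all genes were, and 8 did not overlap in the lower direction, where 0.957% of all genes did. None passed edgeR's adjusted threshold, and DESeq2 called 9 of them lower, where it called 0.573% of all genes lower. Their summed level was 1518, 1518, 1526 and 1797 CPM in Tbet KO males, against 2512, 3009, 2616 and 2029 CPM in Pparg KO males. The highest Tbet KO library was therefore below the lowest Pparg KO library. Control males, at 2514, 1760, 2100 and 1694 CPM, lay between the 2 group means and overlapped both groups. The median difference was -0.59 within batch 1 and -0.65 within batch 2.

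Markers of resident, debris-clearing macrophages are given first. Timd4 encodes TIM-4, a receptor for the phosphatidylserine of dying cells. It lay at 2.2, 2.23, 1.87 and 2.98 CPM in Tbet KO males, against 10.5, 7.29, 16.2 and 6.22 CPM in Pparg KO males. Its log2 fold change was -2.05 (SE 0.33, unadjusted p 0.00027, adjusted p 0.478), and no library crossed over. Controls lay at 5.74, 3.54, 3.39 and 4.17 CPM, above every Tbet KO library and below every Pparg KO library.

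Lyve1, a hyaluronan receptor shared by these macrophages and lymphatic endothelium, lay at 41.8, 33.1, 23.5 and 45.7 CPM in Tbet KO males, against 69.6, 88.3, 60.5 and 69.4 CPM in Pparg KO males. The log2 fold change was -1.0 (SE 0.20, adjusted p 0.478), again without overlap, and controls at 50.7 to 101 CPM lay above all Tbet KO libraries. Folr2, the folate receptor β, had 42.5, 27.9, 36.9 and 36.8 CPM in Tbet KO males, against 61.4, 57.6, 58.2 and 52.6 CPM in Pparg KO males. Its groups also stayed apart, at a log2 fold change of -0.68 (adjusted p 0.478, SE 0.11), while controls at 34.9 to 63.1 CPM spanned both. Fcna, which encodes the macrophage lectin ficolin A, a starter of the lectin pathway of complement, was no member of the list and had the smallest p of all lower genes after Rac2. It lay at 23.8, 16.1, 21.7 and 28.1 CPM in Tbet KO males, against 47, 64.5, 63.7 and 58 CPM in Pparg KO males and 31.2 to 88.1 CPM in controls. Its log2 fold change was -1.38 (SE 0.18, adjusted p 0.478), with every Tbet KO library below every Pparg KO and control library.

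The promoter windows of Timd4, Folr2, Fcna and Mrc1 are shown because these are macrophage genes that were lower together and whose start sites RefSeq places. Each runs from 250 bases before to 50 bases after an annotated start site (RefSeq, GRCm38.p6). On the plus strand are chr11:46810549-46810848 for Timd4 and chr2:14229164-14229463 for Mrc1. On the minus strand are chr7:101857141-101857440 and chr7:101845282-101845581 for the 2 windows of Folr2, and chr2:25627925-25628224 for Fcna. The Fcna window and window 2 of Folr2 lie inside the gene (chr2:25624665-25635440 and chr7:101839988-101857190), not at its outermost start. Capitals mark GAGGAA or its reverse complement TTCCTC, the core bound by PU.1, the lineage factor of myeloid cells.
Timd4: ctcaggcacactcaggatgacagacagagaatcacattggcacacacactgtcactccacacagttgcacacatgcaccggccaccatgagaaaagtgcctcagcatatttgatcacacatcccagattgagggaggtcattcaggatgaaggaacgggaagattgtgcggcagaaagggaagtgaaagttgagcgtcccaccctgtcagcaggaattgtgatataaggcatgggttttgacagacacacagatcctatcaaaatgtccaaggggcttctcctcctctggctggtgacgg
Folr2 window 1: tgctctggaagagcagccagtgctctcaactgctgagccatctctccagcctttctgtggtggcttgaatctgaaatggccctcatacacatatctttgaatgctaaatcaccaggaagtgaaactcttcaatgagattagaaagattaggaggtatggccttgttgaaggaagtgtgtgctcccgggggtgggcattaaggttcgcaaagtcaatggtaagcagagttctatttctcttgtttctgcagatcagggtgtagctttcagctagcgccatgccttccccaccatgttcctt
Folr2 window 2: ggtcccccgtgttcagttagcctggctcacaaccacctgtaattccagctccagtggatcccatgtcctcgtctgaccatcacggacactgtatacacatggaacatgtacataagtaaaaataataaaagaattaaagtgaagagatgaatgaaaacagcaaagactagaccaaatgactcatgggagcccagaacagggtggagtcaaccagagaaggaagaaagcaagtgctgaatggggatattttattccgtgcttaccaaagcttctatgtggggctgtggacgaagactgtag
Fcna: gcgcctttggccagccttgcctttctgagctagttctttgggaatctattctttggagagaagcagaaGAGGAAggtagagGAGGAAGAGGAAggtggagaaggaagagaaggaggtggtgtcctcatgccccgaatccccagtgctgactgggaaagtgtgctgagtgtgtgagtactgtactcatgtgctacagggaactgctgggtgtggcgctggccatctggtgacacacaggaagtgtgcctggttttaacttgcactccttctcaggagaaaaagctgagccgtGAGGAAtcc
Mrc1: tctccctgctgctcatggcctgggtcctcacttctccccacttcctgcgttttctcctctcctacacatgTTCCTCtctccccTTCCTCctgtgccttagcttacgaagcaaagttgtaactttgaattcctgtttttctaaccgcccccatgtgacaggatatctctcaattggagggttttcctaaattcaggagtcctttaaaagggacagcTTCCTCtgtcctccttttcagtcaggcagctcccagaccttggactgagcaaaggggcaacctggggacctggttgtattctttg
The Fcna window holds 4 copies, the Mrc1 window 3, and the Timd4 window and both Folr2 windows 0. Of the 17 listed genes, 11 have windows in the table, 12 in all, and 7 of those 12 hold the core on either strand, where 28.3% of all 32851 windows of 300 bases do. The T-box core AGGTGT or its reverse complement ACACCT was in 1 of the 12 windows, against 13.7% of all windows. Such matches describe letters, not binding.

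The general macrophage genes that follow belong to the same resident macrophage list and are already counted in its values above. Their lower levels are therefore no separate support beside that list. Csf1r, the receptor for the growth factor macrophages need to survive, lay at 130, 158, 150 and 199 CPM in Tbet KO males, against 210, 311, 203 and 247 CPM in Pparg KO males (log2 fold change -0.60, SE 0.12, adjusted p 0.478). Its groups did not overlap. Adgre1, which encodes F4/80, had 33, 38, 42.7 and 57.6 CPM in Tbet KO males, against 62, 94, 74.7 and 60 CPM in Pparg KO males, at a log2 fold change of -0.77 (adjusted p 0.583, SE 0.19). The narrowest gap lay between Tbet KO replicate 4 and Pparg KO replicate 4. Cd68, a lysosomal glycoprotein of phagocytes, lay at 47, 52.1, 52.2 and 54.7 CPM in Tbet KO males, against 144, 99.2, 75 and 64.4 CPM in Pparg KO males. The Tbet KO libraries were tightly grouped and the Pparg KO libraries wide, and the log2 fold change was -0.88 (SE 0.24, adjusted p 0.668).

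Itgam, the CD11b integrin chain of myeloid cells, showed batch-dependent size: its difference of mean log2 CPM was -1.84 in batch 1 and -0.50 in batch 2, with a log2 fold change of -1.20 over both (SE 0.30). Tbet KO males had 28.3, 64.3, 30.5 and 73.4 CPM, against 114, 129, 97.2 and 73.6 CPM in Pparg KO males. The chains of complement C1q, which macrophages of fat make in quantity, had log2 fold changes of -0.54 (SE 0.15) for C1qa, -0.52 (SE 0.16) for C1qb and -0.58 (SE 0.14) for C1qc. C1qb did not overlap, at 66.9 to 75.9 CPM in Tbet KO males and 79.4 to 137 CPM in Pparg KO males. Lyz2, the myeloid lysozyme and the most abundant member, lay at 499 to 586 CPM in Tbet KO males and 575 to 1063 CPM in Pparg KO males, at a log2 fold change of -0.71 (SE 0.20). Mrc1, the mannose receptor, had a log2 fold change of -0.52 (SE 0.14), and the scavenger receptor Cd163 had -0.54 (SE 0.24). Cd163 overlapped widely, since Pparg KO replicate 1 held its lowest level, 34.1 CPM. Cd14, Fcgr1 and Ctss had log2 fold changes between -0.90 and -0.60.

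Epithelial transcripts, uneven among the libraries, were set beside this difference. With the epithelial level as a further covariate, the median of the 17 genes was -0.68 and 15 were lower at an unadjusted p under 0.05. With replicate 4 of both groups left out, the median was -0.83 and 16 were lower at that level. Without Tbet KO replicate 4 the median was -0.74, with 15 lower at that level. Leaving out any 1 library left the median between -0.79 and -0.59, with all 17 below 0 each time.

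**Figure D2:**
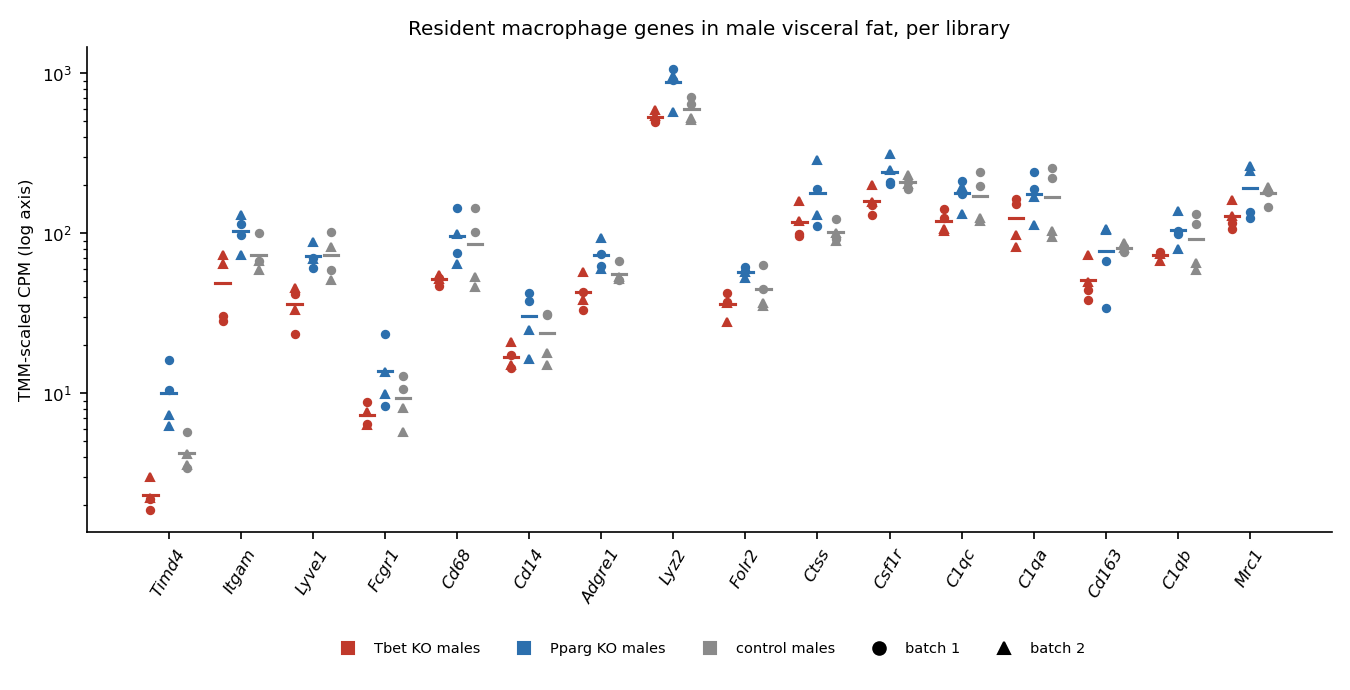
TMM-scaled CPM (log axis) of 16 of the 17 genes of the resident macrophage list in each male library. Tbet KO is left, Pparg KO middle and control right for each gene, and genes are ordered by log2 fold change. Each point is a library, circles for batch 1 and triangles for batch 2, and bars are group means. Timd4 shows the widest separation, at 1.87 to 2.98 CPM in Tbet KO males and 6.22 to 16.2 CPM in Pparg KO males.

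Genes that act in leukocytes of many kinds filled most of the remaining places among the 10 lower genes of smallest p. Rac2, a small GTPase of blood cells that drives migration and the oxidative burst, ranked first. It lay at 25.1, 20, 23.6 and 25.9 CPM in Tbet KO males, against 46, 42.2, 49.3 and 37.3 CPM in Pparg KO males and 21.6 to 33.3 CPM in controls. The groups were fully apart, at a log2 fold change of -0.88 (SE 0.11, unadjusted p 3.9e-05, adjusted p 0.478). Plek, or pleckstrin, a protein kinase C substrate of platelets and leukocytes, had 16, 23, 15.3 and 24.6 CPM in Tbet KO males, against 32.7, 39.5, 33 and 31.9 CPM in Pparg KO males. Coro1a, an actin-binding coronin of leukocytes, had 73.3, 55.7, 61.2 and 53 CPM in Tbet KO males, against 130, 85.2, 96.9 and 83.6 CPM in Pparg KO males. Neither overlapped, and their log2 fold changes were -0.83 (SE 0.13) and -0.70 (SE 0.11).

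Protein kinase C β (Prkcb, log2 fold change -0.83, SE 0.12), the integrin chain α4 (Itga4, -0.68, SE 0.12), the ubiquitin ligase March1 (-0.73, SE 0.13) and the lysosomal protein Laptm5 (-0.64, SE 0.11) completed the 10. March1 removes MHC class II from the surface of antigen-presenting cells. These 4 genes overlapped between the groups across batches, but each was lower within both batches. Laptm5 lay at 178 and 162 CPM in Tbet KO males of batch 1, against 304 and 252 CPM in Pparg KO males of that batch, and at 76.4 and 79.4 CPM in Tbet KO males of batch 2, against 130 and 101 CPM in Pparg KO males.

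None of the 10 higher genes of smallest p passed edgeR's adjusted threshold. The peptide transporter Slc15a2 lay at 22.8, 19.1, 18.6 and 19.8 CPM in Tbet KO males, against 12.2, 6.82, 7.98 and 11.7 CPM in Pparg KO males, with no overlap (log2 fold change 1.05, SE 0.21, adjusted p 0.478). Controls ranged more widely, at 7.83 to 35.9 CPM. Cyb5r2, a cytochrome b5 reductase, had 7.1, 5.96, 5.57 and 5.6 CPM in Tbet KO males, against 2.47, 3.62, 3.73 and 2.85 CPM in Pparg KO males. Kyat1, a kynurenine aminotransferase, had 18.4, 16.9, 21.3 and 18.7 CPM in Tbet KO males, against 14.1, 12.5, 15.5 and 12.9 CPM in Pparg KO males. Both were apart, at log2 fold changes of 0.93 (SE 0.22, adjusted p 0.558) and 0.45 (SE 0.10, adjusted p 0.524). The Kyat1 controls, at 16.7 to 21.2 CPM, lay above every Pparg KO library.

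N4bp3, which binds a NEDD4 ubiquitin ligase, had the smallest p of the higher genes, with 46.9, 31.3, 54.3 and 31.2 CPM in Tbet KO males, against 31.5, 21.2, 35.4 and 21.5 CPM in Pparg KO males (log2 fold change 0.57, SE 0.08, adjusted p 0.478). Its batches differed in level, so the groups overlapped, but within each batch every Tbet KO library was higher. Mgst2, a glutathione transferase of the membrane, had a log2 fold change of 0.81 (SE 0.14), the ephrin ligand Efna1 0.45 (SE 0.09), the apolipoprotein Apoc1 0.60 (SE 0.12), Tmeff1 0.56 (SE 0.13) and the cytoskeletal protein Shroom2 0.52 (SE 0.12). Hist1h4h, at 0.56 (SE 0.12), is 1 of several near-identical histone H4 genes, and its reads may be shared among them.

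Genes listed for lipid-associated macrophages, which gather around dying adipocytes, differed less evenly than the resident macrophage list. Their summed level averaged 22543 CPM in Tbet KO and 22411 CPM in Pparg KO males, far above Trem2 and Tyrobp. The list therefore does not single out these macrophages. Of its 18 genes, 13 were below 0, where 54% of all genes were, with a median log2 fold change of -0.39. At an unadjusted p under 0.05, 2 were lower, where 3.56% of all genes were. Trem2, the lipid receptor that defines these macrophages, lay at 18.5, 12.2, 12.9 and 16.9 CPM in Tbet KO males, against 47, 33.1, 19.2 and 14.9 CPM in Pparg KO males (log2 fold change -0.90, SE 0.36, adjusted p 0.932). Tyrobp, its signalling adaptor, had a log2 fold change of -0.58 (adjusted p 0.952, SE 0.24). Without Pparg KO replicate 2 the median of the list was -0.07.

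Of 14 type 2 immunity and eosinophil genes, 13 were below 0, where 54% of all genes were, with a median of -0.42. At an unadjusted p under 0.05, 3 were lower, where 3.56% of all genes were. The median was -0.20 without Pparg KO replicate 1 and -0.11 in batch 1 alone, where 9 of the 14 were below 0. Arg1, the arginase of alternatively activated macrophages, lay at 1.48, 0.627, 2.81 and 1.31 CPM in Tbet KO males, against 23.9, 2.51, 14.5 and 2.33 CPM in Pparg KO males. Both batches separated the groups, at a log2 fold change of -2.30 (adjusted p 0.5, SE 0.48), although batch 1 held the high Pparg KO levels. Controls showed the same split by batch, with 25.7 and 10.7 CPM in batch 1 and 1.14 and 1.08 CPM in batch 2. The other 2 were Mrc1, described above, and the eosinophil attractant Ccl24 at -0.51 (SE 0.21).

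Lymphocyte genes were also lower on balance but scattered more. Of 22 T cell genes, 20 were below 0, where 54% of all genes were, with a median of -0.49. At an unadjusted p under 0.05, 3 were lower, where 3.56% of all genes were. The median difference of the list was -0.23 in batch 1 and -0.74 in batch 2, and the median without Tbet KO replicate 2 was -0.28. The adhesion receptor Cd2 lay at 5.02 to 6.03 CPM in Tbet KO males and 5.62 to 12.2 CPM in Pparg KO males, and the receptor adaptor Lat at 2.72 to 3.73 CPM in Tbet KO males and 4.07 to 5.18 CPM in Pparg KO males. Lat did not overlap (log2 fold change -0.51, SE 0.21). Among 21 T-bet target and cytotoxic genes, 20 were below 0, where 54% of all genes were, with a median of -0.54. Batch 1 by itself gave -0.85 and batch 2 by itself -0.24. Beside Tbx21, only Il2rb, a chain of the IL-2 and IL-15 receptors, was lower at an unadjusted p under 0.05, at -0.83 (SE 0.34). Of all genes, 3.56% were lower at that level.

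Genes of the regulatory T cell list were close to level as a group. The 22 tested members had a median of -0.14, and 14 were below 0, where 54% of all genes were. Their median difference was 0.27 in batch 1 and -0.35 in batch 2. Summed, the list averaged 250 CPM in Tbet KO and 258 CPM in Pparg KO males. The T cell list averaged only 118 and 150 CPM, so these values do not single out Treg cells. Batf, a transcription factor that fat Treg cells need, was the 1 member lower at an unadjusted p under 0.05, where 3.56% of all genes were. Its log2 fold change was -0.82 (SE 0.34), at 0.889 to 1.67 CPM in Tbet KO males and 1.57 to 2.85 CPM in Pparg KO males. Il1rl1, which encodes ST2 and was named after its values were seen, lay at 11.9, 12, 7.39 and 9.45 CPM in Tbet KO males, against 6.95, 18.3, 10.1 and 11.5 CPM in Pparg KO males, and its log2 fold change was -0.15 (SE 0.26, adjusted p 0.999). Mast cells and innate lymphoid cells also carry it.

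B cell and plasma cell genes had the lowest median, -2.08 over 16 genes, all below 0. Of these, 6 were lower at an unadjusted p under 0.05, where 3.56% of all genes were. The size depended on the batch: the median difference was -2.96 in batch 1 and -0.12 in batch 2. The summed level of the list overlapped, at 607 to 1416 CPM in Tbet KO males and 1111 to 1776 CPM in Pparg KO males. Controls ranged from 546 to 4045 CPM. Cd79b, a signalling chain of the B cell receptor, lay at 3.62, 4.46, 2.48 and 4.29 CPM in Tbet KO males, against 15.7, 1.92, 36.3 and 16.1 CPM in Pparg KO males. For Cd79b, Pparg KO replicate 2 was at the low end and the other 3 Pparg KO libraries were above every Tbet KO library. That replicate nevertheless had the highest summed level, 1776 CPM. Without Pparg KO replicate 2, 14 of the 16 genes were lower at an unadjusted p under 0.05, and without Pparg KO replicate 4 or Tbet KO replicate 1 only 1 was. The tetraspanin Cd37, which macrophages share, did not overlap, at 20.4 to 26.2 CPM in Tbet KO males and 30.5 to 57.3 CPM in Pparg KO males (log2 fold change -0.88, SE 0.18, adjusted p 0.478). DESeq2 called Cd37 and Cd22, the inhibitory sialic acid receptor. Cr2, the complement receptor of B cells, lay at 0.562, 0.383, 0.234 and 2.4 CPM in Tbet KO males, against 0.874, 0.724, 1.43 and 25.2 CPM in Pparg KO males. Fcer2a, the low-affinity IgE receptor, lay at 0.766, 0.871, 1.08 and 1.96 CPM in Tbet KO males, against 2.62, 0.852, 5.01 and 14.6 CPM in Pparg KO males. Both overlapped, and for both the highest level was in Pparg KO replicate 4. Cxcl13, the chemokine that draws B cells into follicles, lay at 4.75, 4.32, 1.54 and 7.92 CPM in Tbet KO males, against 31.7, 0.81, 83.2 and 9.54 CPM in Pparg KO males. Its highest level was thus in Pparg KO replicate 3. Lymph node stroma genes summed to 804 to 1297 CPM in Tbet KO males and 984 to 1518 CPM in Pparg KO males, and the part of nodes or lymphoid clusters in the B cell levels was not tested.

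**Figure D3:**
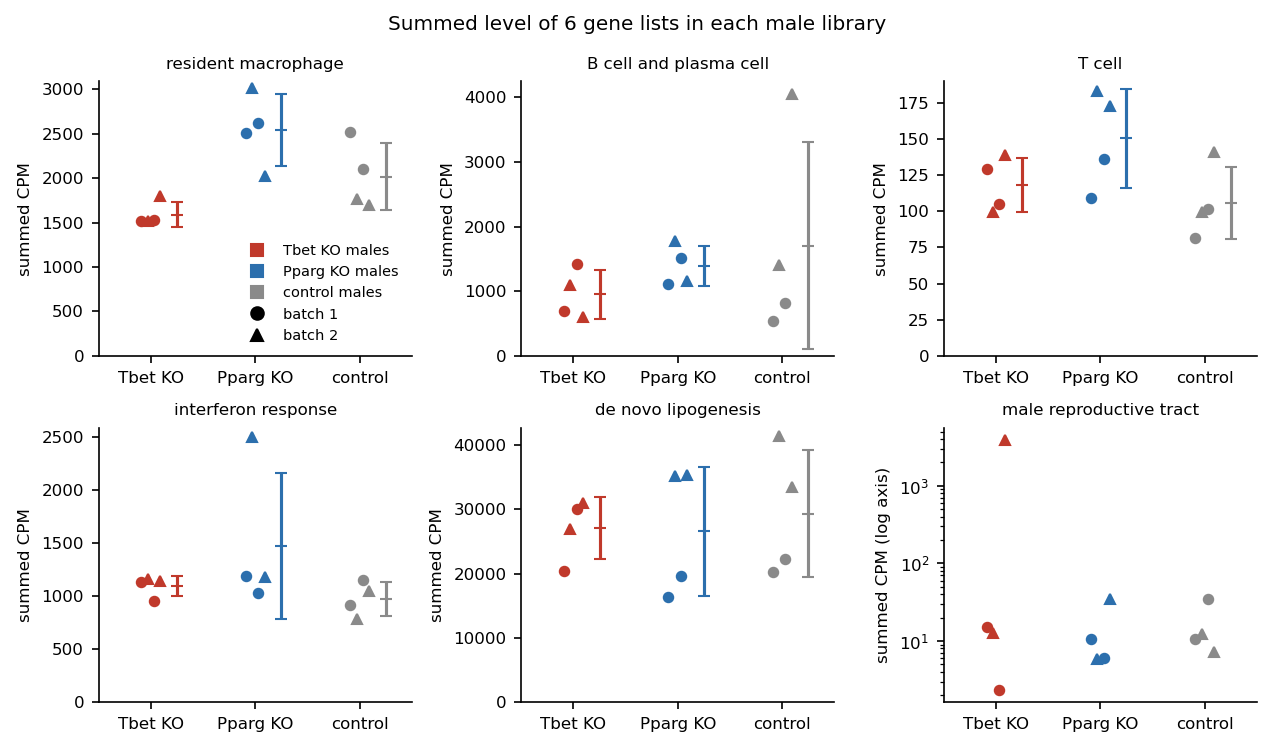
Summed CPM of 6 gene lists in each male library, Tbet KO left, Pparg KO middle, control right, with circles for batch 1 and triangles for batch 2. Bars beside the points are mean ± SD of 4 libraries. The resident macrophage sums lie at 1518 to 1797 CPM in Tbet KO males and 2029 to 3009 CPM in Pparg KO males. Male reproductive tract genes are on a log axis without a mean, and 1 Tbet KO library stands at 3835 CPM.

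Interferon response genes were all below 0, 22 of 22, where 54% of all genes were, with a median of -0.30. A single library contributed much of it: their sum was 960.5 to 1165 CPM in Tbet KO males, against 1194, 2502, 1031 and 1181 CPM in Pparg KO males. Without Pparg KO replicate 2 the median was -0.11. The nucleic acid sensor Zbp1 was the 1 member of 22 lower at an unadjusted p under 0.05 (log2 fold change -0.74, SE 0.29), beside 3.56% of all genes. Antigen presentation and dendritic cell genes had a median of -0.19 over 17 genes. Of these, 3 were lower at an unadjusted p under 0.05, where 3.56% of all genes were. They were the class II modulators H2-Oa (-2.22, SE 0.76), which B cells make, and H2-DMb2 (-1.08, SE 0.38), and the lymph node homing receptor Ccr7 (-0.98, SE 0.39). H2-Oa was barely detected and overlapped, at 0.187 to 1.02 CPM in Tbet KO males and 0.469 to 2.97 CPM in Pparg KO males. None of 20 inflammatory cytokine and chemokine genes reached an unadjusted p under 0.05, and their median was -0.39. The batches had opposite signs, with a median difference of -0.66 in batch 1 and 0.14 in batch 2, and without Pparg KO replicate 1 the median was -0.02.

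Cell cycle genes were below 0 in 17 of 18 cases, where 54% of all genes were, at a median of -0.35. At an unadjusted p under 0.05, 3 were lower, where 3.56% of all genes were. The sliding clamp Pcna lay at 29.9, 26, 28.7 and 28.7 CPM in Tbet KO males, against 51.7, 35.5, 40.1 and 28.7 CPM in Pparg KO males. The replicative helicase subunit Mcm5 had a log2 fold change of -0.79 (SE 0.29) and topoisomerase Top2a had -0.69 (SE 0.23). The median difference of the list was larger in batch 1, -0.51, than in batch 2, -0.08.

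Adipocyte programs had medians close to 0 over both batches. Of 20 mature adipocyte and adipokine genes, 11 were above and 9 below 0 with a median of 0.06, and none reached an unadjusted p under 0.05. Leptin (Lep) lay at 2616, 4577, 4709 and 2582 CPM in Tbet KO males and at 3087, 4012, 3830 and 2607 CPM in Pparg KO males, a log2 fold change of 0.10 (SE 0.28). The smallest p of the list belonged to resistin (Retn), at 0.32 (SE 0.15). The median was -0.01 over 19 de novo lipogenesis genes, 0.05 over 20 of cholesterol synthesis, -0.04 over 14 of triglyceride synthesis and lipolysis, and -0.01 over 19 of oxidative phosphorylation. In batch 1 and batch 2 the median difference was 0.23 and -0.26 for mature adipocyte genes, 0.20 and -0.23 for de novo lipogenesis, and 0.21 and -0.26 for triglyceride synthesis and lipolysis, so the signs were opposite.

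The lipogenic enzymes varied between libraries far more than between groups. Fatty acid synthase (Fasn) lay at 464, 2436, 2034 and 2307 CPM in Tbet KO males, against 662, 7146, 1080 and 2890 CPM in Pparg KO males, at a log2 fold change of -0.28 (adjusted p 0.999, SE 0.59). That interval is wide, so a moderate difference in either direction was not detectable at this spread. The insulin receptor substrate Irs2 (-0.57, SE 0.24) and the respiratory chain subunit Cox4i1 (0.28, SE 0.11) were the only members of the insulin signalling and oxidative phosphorylation lists at an unadjusted p under 0.05. Ide, the insulin-degrading enzyme, was named after its values were seen. It lay at 51, 73.1, 61.7 and 76.1 CPM in Tbet KO males and 53.7, 93.2, 47.9 and 75.4 CPM in Pparg KO males, a log2 fold change of -0.01 (SE 0.12). Both groups were below all controls, which lay at 114 to 130 CPM.

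Stroma and vessels held a few single differences. Fn1, or fibronectin, which macrophages and fibroblasts secrete, lay at 373, 663, 468 and 691 CPM in Tbet KO males, against 694, 1158, 707 and 944 CPM in Pparg KO males. It did not overlap (log2 fold change -0.68, SE 0.13, adjusted p 0.478) and was the only one of 20 matrix genes that DESeq2 called. Elastin (Eln) went the other way, at 0.56 (SE 0.18, adjusted p 0.817). Of 14 endothelial genes, 13 were above 0 at a median of 0.14, with von Willebrand factor (Vwf) at 0.34 (SE 0.14) and Lyve1 the single member below 0. Mesothelial genes, which mark the serous lining, turned with the batch, at a median difference of -1.85 in batch 1 and 0.71 in batch 2.

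**Figure D4:**
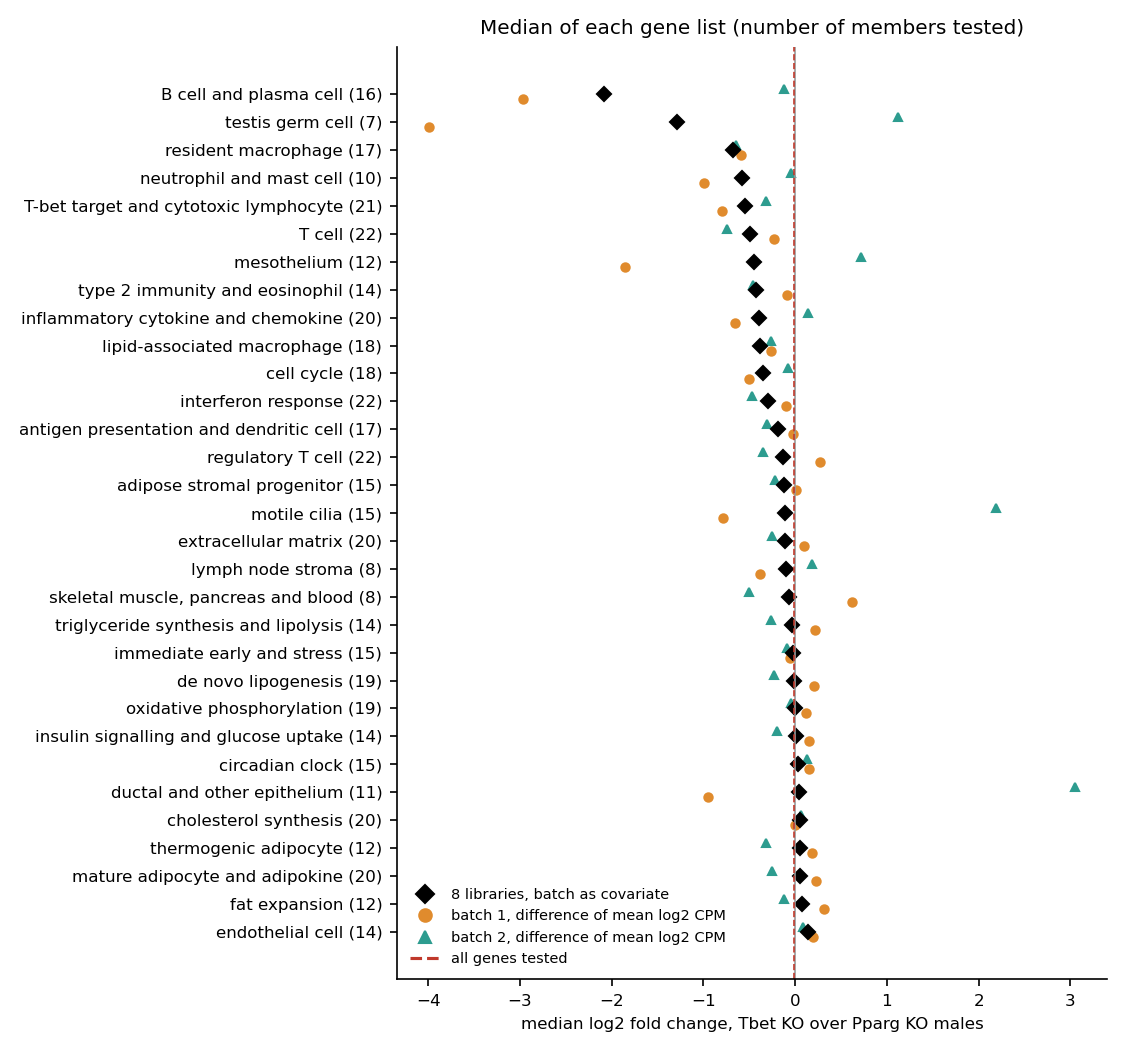
Median log2 fold change of Tbet KO over Pparg KO males for each gene list with at least 5 tested members (black diamonds), with the median difference of mean log2 CPM within batch 1 (orange circles) and batch 2 (green triangles). The red dashed line is the median over all genes, -0.02. Resident macrophage genes give -0.68, -0.59 and -0.65, while B cell, mesothelium and epithelium lists separate by batch.

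Genes near the deleted loci were counted apart, and 0 of them were called. Within 5 Mb of Tbx21 5.1% of 196 tested genes had an unadjusted p under 0.05, within 5 Mb of Pparg 6.41% of 78, and within 5 Mb of Foxp3 8.16% of 49, beside 5.17% of all genes.

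The same contrast in females, fitted jointly over the 16 knockout libraries, tested whether the male pattern differed by sex. No gene of 17249 passed (0%), with 736 at an unadjusted p under 0.05 (4.27%), and DESeq2 called 4. Among the genes of the resident macrophage list all 17 had a lower fold change in males than in females. The male values come from the same libraries in which this list stood out, so the comparison is no independent check of it. Their median was -0.67 in males and 0.13 in females, and 8 of the 17 differences reached an unadjusted p under 0.05. Timd4 had a log2 fold change of -2.29 in males and 0.13 in females, a difference of -2.42 (SE 0.74, unadjusted p 0.0058, adjusted p 1). The Lyve1 difference was -1.40 (SE 0.52) and the Fcna difference -1.78 (SE 0.60), both with an adjusted p of 1.

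Interferon response genes showed the same order, with a median of -0.29 in males and 0.51 in females. Of their 22 differences, 9 reached an unadjusted p under 0.05, beside 4.27% of all genes in either direction. The order was not particular to these lists. In males and females the medians were -0.53 and 0.21 for T cell genes, and -0.56 and 0.40 for T-bet target and cytotoxic genes. De novo lipogenesis genes ran the other way. Their median was -0.01 in males and -1.78 in females, and 16 of 20 differences reached an unadjusted p under 0.05. Fasn differed by 2.47 (SE 0.80, adjusted p 1) between the sexes. Cholesterol synthesis genes had medians of 0.05 in males and -0.98 in females, with 15 of 20 differences at that level. None of these differences passed the adjusted threshold.

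**Figure D5:**
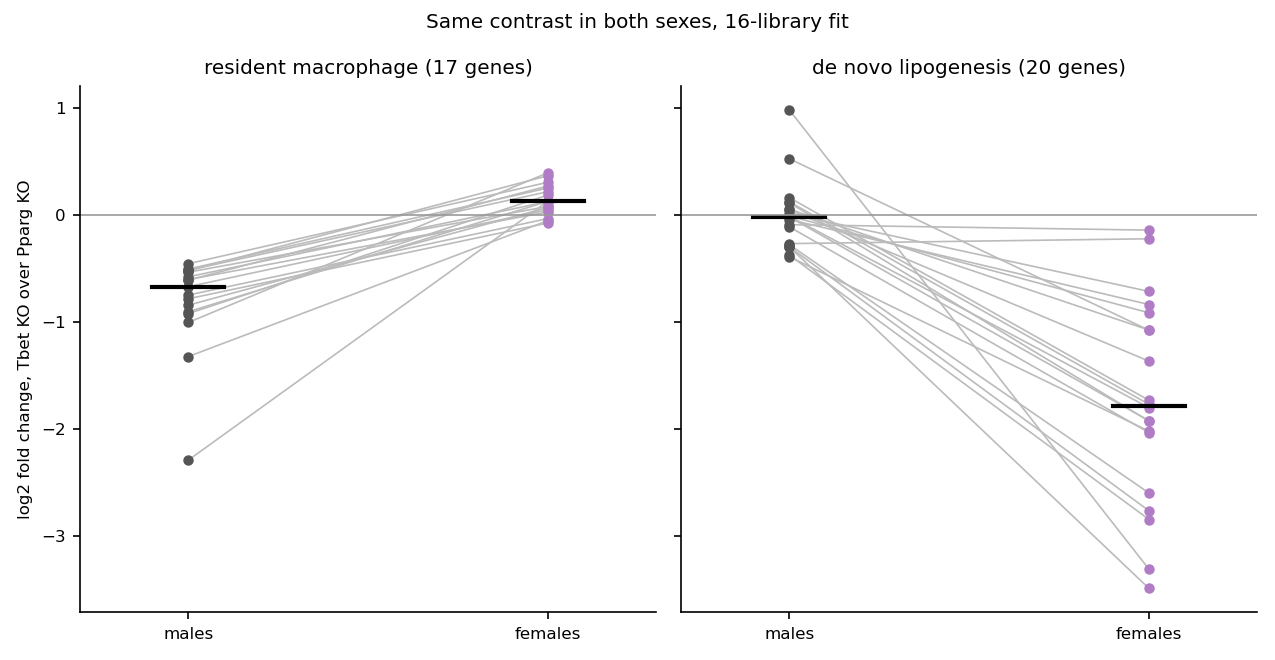
Log2 fold change of Tbet KO over Pparg KO in males (left of each panel) and females (right), from the fit of 16 knockout libraries. Shown are the 17 genes of the resident macrophage list and 20 de novo lipogenesis genes. Each line is a gene and black bars are medians: -0.67 in males and 0.13 in females for macrophage genes, -0.01 and -1.78 for lipogenesis genes.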

How the data were processed

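RNA was measured by sequencing of whole visceral fat, with TruSeq libraries per the labels. The authors deposited raw counts per gene, made with featureCounts on GRCm38 (mm10) per the submitters' processing notes, and log2 FPKM values per sample, deposited by the authors, which served only as an alternative. No source used here gives the aligner, annotation or strand setting. Of 27179 genes, 1029 have no symbol, 25275 matched a RefSeq position, and 16410 passed edgeR's filterByExpr.

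Counts were tested with edgeR 4.0.16 (robust quasi-likelihood, TMM scaling, batch as covariate, 5 residual degrees of freedom, Benjamini-Hochberg threshold 0.05), with DESeq2 1.42.0 and limma 3.58.1 as alternatives, in R 4.3.3. Fold changes are Tbet KO over Pparg KO. The code was tested on simulated data. Control males were scaled to the same reference library and not fitted.

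The comparison and gene lists were chosen with earlier results of these data known. Named genes were Pparg, Tbx21 and Foxp3, the 10 genes of smallest unadjusted p in each direction (genes under 0 in mean log2 CPM excluded), and up to 3 genes of smallest p per list, with predicted genes left out. Further list members, Ide, Il1rl1 and Xist were named after their values were seen. Some items are not reported here.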

Additional observations from a re-analysis of the deposited data

Results flagged for a closer look

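In groups of 4 libraries, a library was singled out where its gap to the nearest other took up more of the group's range than Dixon's critical value for 4 values allows, which chance gives in about 1 in 20 groups. Of 202 groups checked, over 69 genes and 32 list sums in Tbet KO and Pparg KO males, 12 were singled out, and no explanation was tested. In Tbet KO males, replicate 4 stood alone in 6 of them: Ccr7 at 2.4 CPM (others 1.07 to 1.22), Il2rb at 9.31 CPM (others 2.24 to 3.45), Gata3 at 9.89 CPM (others 1.43 to 2.25), Xist at 22.5 CPM (others 0.613 to 3.1), and the sums of the resident macrophage list at 1797 CPM (others 1518 to 1526) and of the male reproductive tract list at 3835 CPM (others 2.34 to 15.3). Tbet KO replicate 3 had the lowest sums of the interferon response list, at 960.5 CPM (others 1136 to 1165), and of the neutrophil and mast cell list, at 64.1 CPM (others 74.9 to 76.9). In Pparg KO males, replicate 2 was high for Plek at 39.5 CPM (others 31.9 to 33) and for the interferon response sum at 2502 CPM (others 1031 to 1194). Pparg KO replicate 4 was low for the fat expansion sum at 5522 CPM (others 7274 to 7569) and high for the male reproductive tract sum at 35.2 CPM (others 5.88 to 10.4).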

How the results depend on the processing

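The count of genes called between Tbet KO and Pparg KO males was 0 in 20 of 22 alternatives, including each of the 8 fits without 1 library (0 to 0). DESeq2 called 111, which were 0.104% of all genes tested in the higher and 0.573% in the lower direction, and batch 1 alone called 10. Of the 111, 29 are named here. The named genes were chosen largely by small p in the same counts, so this overlap is no separate support for them. For the difference between the sexes the count was 0 in 21 of 22 alternatives, and DESeq2 called 4. The cause of these differences between tools was not tested. By deviations from the group means the replicate numbers did not pair the samples. Same-numbered libraries correlated at -0.13 for number 2 and 0.42 to 0.65 for the others. Tbet KO replicate 2 with Pparg KO replicate 4, of unlike number, reached 0.70. Deviations from the means of each group and batch cannot decide this, because each group has only a pair of libraries per batch, whose deviations mirror each other. They gave 0.52 for numbers 1 and 3 and 0.15 for numbers 2 and 4, equal within each pair by construction. Tbet KO replicate 1 with Pparg KO replicate 4 gave 0.70. The replicate block gave 0 genes, with 756 at an unadjusted p under 0.05, and 0 for the sex difference. Summing the libraries of 1 title number gave 0 genes between Tbet KO and Pparg KO males, with 1195 at that level. Single libraries moved the count of list members at an unadjusted p under 0.05: 13 to 16 for resident macrophages, 1 to 14 for B cells, 0 to 7 for interferon response and for lipid-associated macrophages, and 0 to 5 for T cells and for T-bet targets. Of 69 named genes, 6 changed direction in some alternative. In batch 1 alone Foxp3 was at 0.69, Fasn at 0.52, Il1rl1 at 0.18 and Ide at 0.15, and in batch 2 alone Adipoq was at -0.13. Leaving out single libraries put Lep between -0.0909 and 0.246, Fasn between -1.02 and 0.19, Il1rl1 between -0.37 and 0.0727, and Ide between -0.107 and 0.0853. Ide was also at 0.0020 with RLE size factors, 0.0014 in DESeq2, 0.0528 in limma voom with quality weights, 0.0132 in limma on log2 FPKM, 0.0144 with libraries of 1 title number summed, and 0.0218 with the epithelial level as covariate. That covariate, and leaving out replicate 4 of both groups, were chosen after seeing the data.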
